A study of Gnathonemus petersii with 18 samples.

Results

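The 54 genes described here encode, for the most part, the proteins by which neural cells hold on to each other and by which synapses are built. They were taken from the 28031 genes of the deposited table by gene symbol: cadherins, protocadherins, the Celsr and Dachsous giants, neuroligins, neurexins, contactins and their associated proteins, the leucine-rich repeat families LRRTM, SLITRK, LRFN and LRRC4, the genes with an IGSF name, CADM, NCAM and the L1 family. Of the 54, 50 are adhesion or adhesion-related genes by name, and the other 4 (lrrc40, lrrc42, lrrc45 and lrrc47) were matched only because their symbols begin like lrrc4. Only 10373 genes of the table carry a symbol, and the 17658 with a locus identifier alone could not be matched, so each family is present only as far as the annotation names it.

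Libraries were made from 3 tissues of the weakly electric elephantnose fish, Gnathonemus petersii: trigeminal ganglion, cerebellum and spinal cord. Each tissue has 6 libraries, 18 in all, from 6 individual fish per the labels. The labels give no treatment, genotype, age or sex, so tissue is the only difference between the groups that they name. The series title refers to the early origin of fine touch in vertebrates. The trigeminal ganglion holds the cell bodies of the sensory neurons of the head, while the cerebellum and the spinal cord are central tissues with dense synaptic neuropil.

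Classical cadherins join cells of the same kind through calcium-dependent binding between like molecules and are tied to actin by catenins. Protocadherins and the Celsr and Dachsous giants take part in cell recognition and tissue polarity. At the synapse, presynaptic neurexins bind postsynaptic neuroligins and LRRTM proteins. SLITRK proteins and some LRFN proteins bind presynaptic LAR-type receptor phosphatases, and the LRRC4 proteins bind netrin-G proteins or such phosphatases. These pairs help to form and specify contacts. Contactin-associated proteins, contactins and L1-family proteins work along axons, where they arrange the nodes of Ranvier and the myelin contacts beside them.

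Total counts ran from 10346375 to 17587837 per library. The tissue labels were checked against defining markers. The 7 sensory neuron markers of 12 sought summed to 1121 to 2023 CPM in the ganglion against 113 to 174 in the spinal cord and 7.70 to 14.8 in the cerebellum, where isl1 and isl2 were at 0. The 11 granule cell markers were at 8879 to 13814 in the cerebellum, and the 9 spinal cord markers of 10 at 972 to 1360.5 in the spinal cord. Ganglion replicates 2 and 5 stood apart from the other ganglion libraries in several of the genes below, and each difference described below whose call changed without them is given both ways. Muscle RNA also varied: the 4 muscle markers of 11 summed to 11.2 to 3284 CPM in the ganglion, 111 to 1302 in the spinal cord and 9.35 to 12.6 in the cerebellum.

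The adhesion genes as a group were most abundant in the cerebellum and least abundant in the ganglion. Summed over the 54 genes, deposited TPM (transcripts counted per unit of gene length, scaled to a fixed total per library) ran from 579.7 to 829 per ganglion library with a median of 666, from 1232 to 1499.6 in the spinal cord with a median of 1292, and from 1812 to 1974 in the cerebellum with a median of 1931. The ranges of the 3 tissues did not overlap. In these bulk samples, fewer cells of a type and less RNA per cell cannot be told apart. At least 1 count was found for 50 to 52 of the 54 genes per ganglion library, 51 to 52 per spinal cord library and 52 to 53 per cerebellum library.

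Per gene length, the most abundant member in all 3 tissues was cadm3, a nectin-like adhesion protein of axons and their glia, with a mean of 127 TPM in the ganglion, 191 in the spinal cord and 248 in the cerebellum. Its relative cadm4 followed in each tissue, at 74.6, 170.1 and 210.2 TPM. Below them the order differed. In the ganglion cdh11 (64.98 TPM), cdh2 (56.7) and nrcam (43.6) came next, in the spinal cord cdh2 (159), igsf11 (64.96) and ncam2 (56.1), while nrxn3 (159) and cdh2 (119.9) were among the highest in the cerebellum. The neurexin nrxn3 averaged 1.18 TPM in the ganglion, where it ranked 37 among the members.

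**Figure D1:**
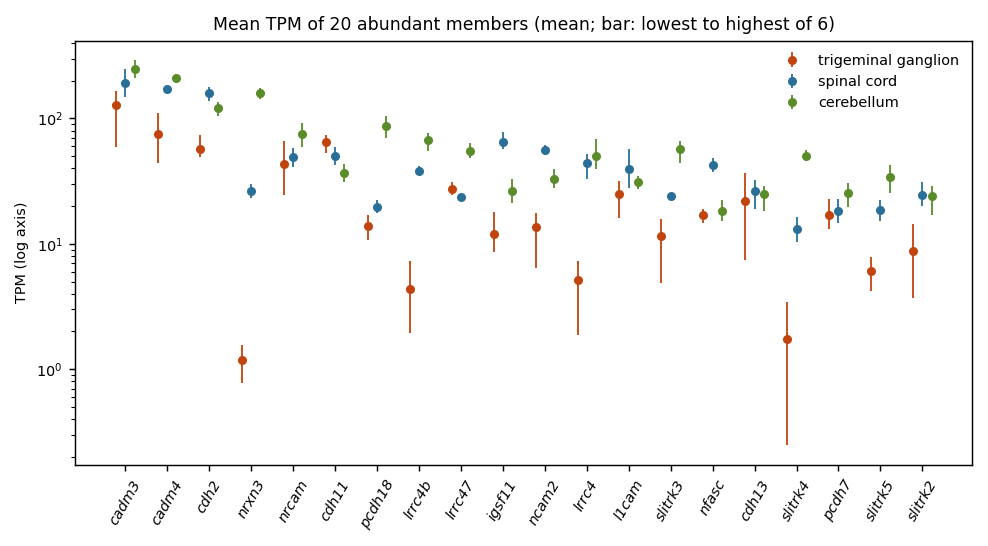
Mean TPM on a log axis of 20 members with high means over 18 libraries, by tissue; bars run from the lowest to the highest of 6 libraries. Most ganglion points lie below the central tissues, the gap being widest for nrxn3, at a mean of 1.18 TPM against 159 in the cerebellum, while cdh11 is highest in the ganglion at 64.98 TPM.

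For tests, levels are given as CPM, gene counts scaled by TMM library size to a fixed total, as the lowest to the highest of 6 libraries with the median. Differences are log2 fold changes with an approximate standard error, always the ganglion minus the other tissue or the spinal cord minus the cerebellum, so that a negative value means a lower level in the ganglion or, without the ganglion, in the spinal cord. A gene was called higher or lower when edgeR's quasi-likelihood F-test gave an adjusted p under 0.05 and the change was at least 2-fold. Of the 54 members 51 had enough counts to be tested. The 3 comparisons share their libraries in pairs, so their results are set side by side and not taken as independent of each other.

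Against the cerebellum, the ganglion was lower for 24 of the 51 tested members (47.1%) and higher for 8 (15.7%). Over all 20691 genes tested, 22.3% were lower and 29.6% higher, 51.9% in either direction. The members' share was thus above that of all genes for lower calls and below it for higher calls. The members' median log2 difference was -0.89, and that of all genes was 0.07. Libraries of the ganglion and the cerebellum did not overlap for 32 members (62.7%), against 47.9% of all genes. Among all genes, 57.1% of the calls were higher in the ganglion. With limma on log2(TPM + 1) this share was 30.4%, the median of all genes moved to -0.47, and 31 members were lower and 2 higher. A pseudocount of 1 TPM understates the change of genes with low levels. With limma on log2(TPM + 0.1) the share was 32.9%, the median of all genes -0.61, and 33 members were lower and 5 higher. The fits on TPM did not use the TMM factors, which ran from 0.611 to 1.06 in the ganglion and from 1.06 to 1.12 in the cerebellum. The part of this scaling in the shift was not tested.

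Against the spinal cord, the ganglion was again lower for 24 of the 51 (47.1%) and higher for 2, cntnap1 and pcdh1 (3.92%), 51% in either direction. Among all genes 17.3% were lower and 14.5% higher, 31.7% in either direction. The median was -0.92 for the members and -0.01 for all genes, and libraries did not overlap for 25 members (49%), against 29.9% of all genes. On the log2(TPM + 1) scale the share of all calls that were higher moved from 45.5% to 21.7%, the median of all genes to -0.36, and the members to 26 lower and 1 higher. The count of 2 higher members was also 1 with replicate number entered as a block and without ganglion replicate 5, pcdh1 losing its call in both.

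The spinal cord and the cerebellum differed in both directions: 14 members were lower in the spinal cord (27.5%) and 12 higher (23.5%). All genes gave 16.3% lower and 28.9% higher, 45.2% in either direction, close to the members' 51%. The members' median was -0.17, that of all genes 0.08, and 29 members (56.9%) had libraries that did not overlap, against 51.9% of all genes. With limma on log2(TPM + 1) the share of all calls that were higher moved from 64% to 51.4%, the median of all genes to -0.11, and the members to 12 lower and 7 higher.

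**Figure D2:**
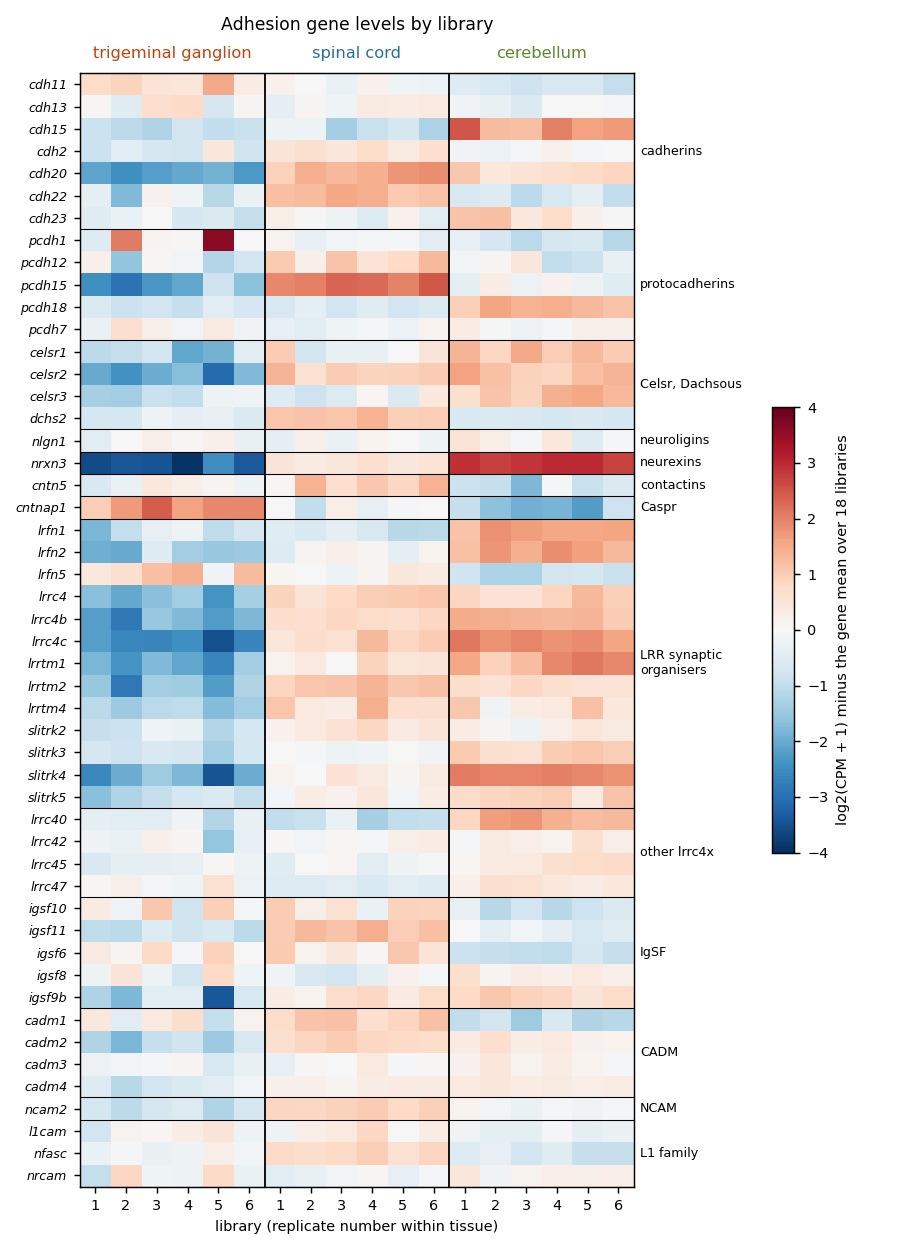
Level of 50 of the 51 tested members (rows, by family) in each of the 18 libraries (columns), as log2(CPM + 1) minus the mean of the gene over all libraries; red is above and blue below that mean. The leucine-rich repeat organisers other than lrfn5 are blue in most ganglion libraries and red in the cerebellum, and ganglion replicates 2 and 5 stand out for pcdh1.

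**Figure D3:**
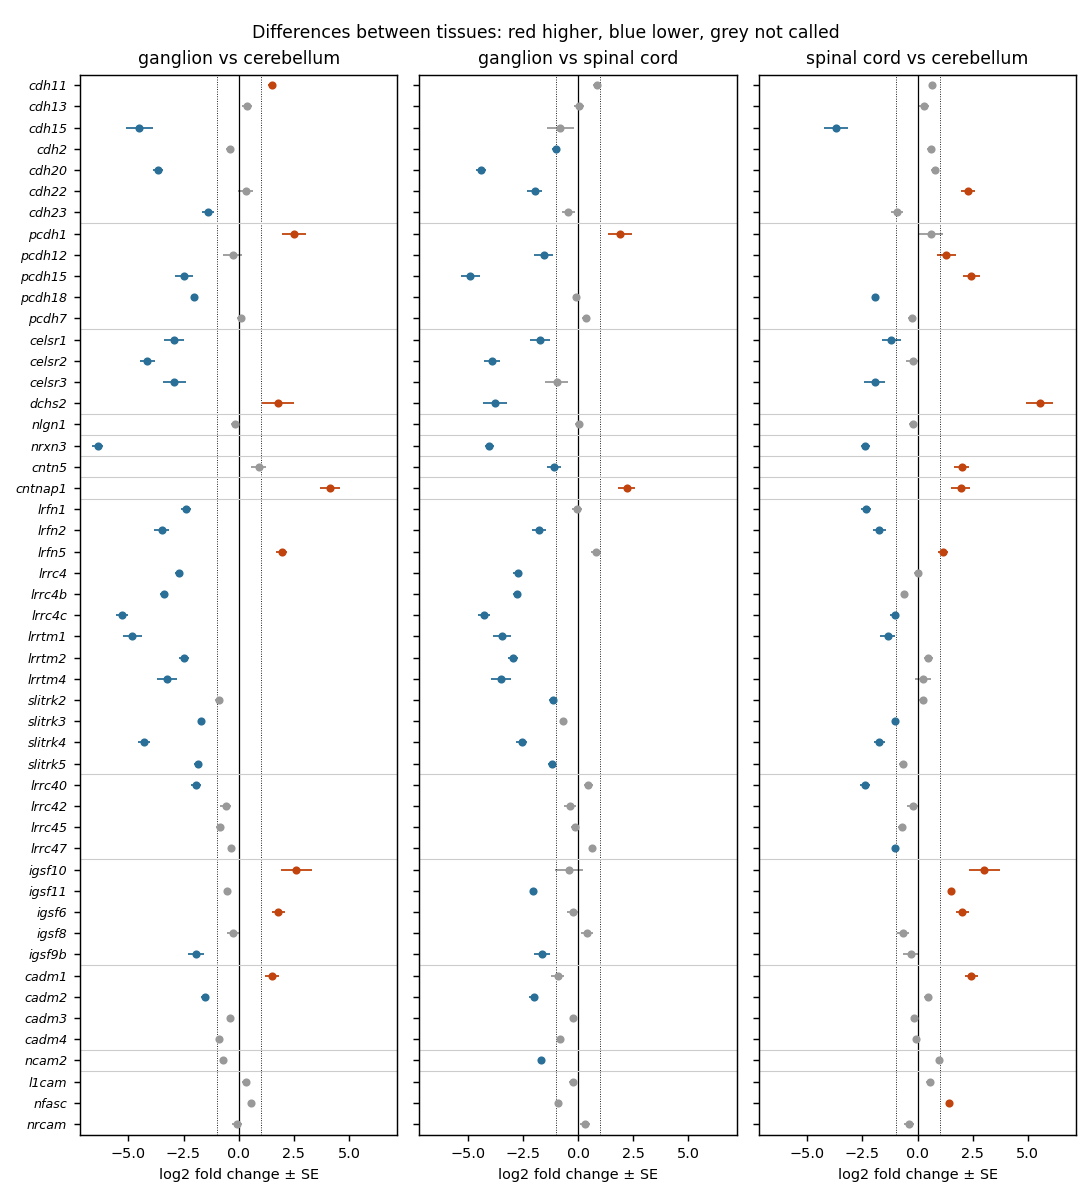
Log2 fold change with its approximate standard error for 50 of the 51 tested members in the 3 comparisons; coloured points passed an adjusted p under 0.05 and 2-fold, grey points did not, and dotted lines mark 2-fold. Against the cerebellum 23 points are blue and 8 red, against the spinal cord 24 and 2, and between the spinal cord and the cerebellum 13 and 12.

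Read across the 3 comparisons, 16 members were lower in the ganglion than in both other tissues (31.4%, against 9.08% of all genes). Of these 16, 10 are leucine-rich repeat organisers or neurexins: lrfn2, lrrc4, lrrc4b, lrrc4c, lrrtm1, lrrtm2, lrrtm4, slitrk4, slitrk5 and nrxn3. The rest are cdh20, pcdh15, celsr1, celsr2, cadm2 and igsf9b. In the cerebellum 13 members were higher than in both other tissues (25.5%, against 11.6% of all genes), among them cdh15, pcdh18, celsr1, celsr3, nrxn3, lrfn1, lrfn2, lrrc4c, lrrtm1, slitrk3, slitrk4 and, by prefix alone, lrrc40. The spinal cord was higher than both for 6 (11.8%, against 8.12%), namely cdh22, pcdh12, pcdh15, dchs2, cntn5 and igsf11. Only cntnap1 and pcdh1 were higher in the ganglion than in both (3.92%, against 10.6%), and pcdh1 rests on 2 ganglion libraries. Without those 2 libraries pcdh1 was called higher than neither, and lrfn5 was called higher than both. The cerebellum was lower than both for 6 members (11.8%, against 20.7%), which are cadm1, cntnap1, dchs2, igsf6, igsf10 and lrfn5. The spinal cord was lower than both for 0 members by edgeR (2.27% of all genes) and 0 by DESeq2. At an unadjusted p under 0.05 and any size of change it was lower than both for 2, lrrc40 and lrrc47. No comparison called cadm3, cadm4, cdh13, igsf8, l1cam, lrrc42, lrrc45, nlgn1, nrcam or pcdh7, which are 10 members (19.6%, against 33.5% of all genes). A miss of the threshold does not show that their levels were equal.

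Neurexins are the presynaptic receptors on which many synaptic adhesion partners converge. Of these, nrxn3 ran from 3.57 to 11.6 CPM (median 5.46) in the ganglion, from 89.5 to 111 (median 97.5) in the spinal cord and from 450.5 to 549 (median 519) in the cerebellum. The 3 tissues did not overlap at any step of this order. Its level was 84.2-fold lower in the ganglion than the cerebellum (log2 fold change -6.40 ± 0.235, edgeR adjusted p = 3.51e-14) and 16.3-fold lower than in the spinal cord (-4.03 ± 0.212, edgeR adjusted p = 1.11e-11). Spinal cord levels were 5.15-fold lower than in the cerebellum (-2.37). The difference between ganglion and cerebellum was the greatest among the tested members. The neuroligin nlgn1, a postsynaptic partner of neurexins, showed no called difference: it ran from 13.4 to 21.6 (median 18.4) CPM in the ganglion, 13.9 to 21.5 (median 17.1) in the spinal cord and 12.4 to 26.9 (median 19.6) in the cerebellum, and all 3 ranges overlapped.

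A list of extracellular partners of neurexins, neuroligins and leucine-rich repeat organisers held 41 symbols, of which 27 were in the table and tested. Of these 27, 16 were lower and 5 higher in the ganglion than the cerebellum, with a median log2 difference of -1.53. Against the spinal cord 13 were lower and 2 higher (median -0.96), and between the spinal cord and the cerebellum 8 were lower and 6 higher (median 0.03). The shares called in either direction were 77.8%, 55.6% and 51.9%, against 51.9%, 31.7% and 45.2% of all genes. The secreted neurexin ligand cbln2 was lowest in the ganglion, at 0.266 to 1.10 CPM (median 0.380), against 21.4 to 38.9 (median 29.8) in the spinal cord and 10.1 to 30.2 (median 12.5) in the cerebellum. It was 60.6-fold lower than in the spinal cord (-5.92 ± 0.374, edgeR adjusted p = 1.29e-10) and 30.5-fold lower than in the cerebellum. The secreted leucine-rich protein lgi3 went the other way, at 167 to 282 (median 224) CPM in the ganglion and 293 to 483 (median 339) in the spinal cord against 7.90 to 22.01 (median 14.1) in the cerebellum. It was 14.7-fold higher in the ganglion (3.88 ± 0.229, edgeR adjusted p = 1.72e-11). Netrin-G2, encoded by ntng2 and the membrane-anchored partner of lrrc4, was at 47.1 to 105 (median 91.3) CPM in the ganglion and 85.7 to 133 (median 114) in the cerebellum but at 6.26 to 15.3 (median 10.7) in the spinal cord. The ganglion was 8.31-fold higher than the spinal cord (3.05 ± 0.233, edgeR adjusted p = 1.76e-09).

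The leucine-rich repeat organisers, 13 members in the families named LRFN, LRRC4, LRRTM and SLITRK, were the largest family and the one with the most calls. In the ganglion 11 of 13 were lower than in the cerebellum and 1, lrfn5, was higher, with a median log2 difference of -2.71. Against the spinal cord 10 of 13 were lower, with a median of -2.57. Of the other 3, slitrk3 was at -0.70 ± 0.135 (edgeR adjusted p = 2.54e-04), lrfn5 at 0.79 ± 0.228 (edgeR adjusted p = 0.00673) and lrfn1 at -0.05. Without ganglion replicates 2 and 5, lrfn5 was at 1.02 (edgeR adjusted p = 1.91e-04), called higher. Ganglion libraries did not overlap those of the cerebellum for 12 members and those of the spinal cord for 10. These are 92.3% and 76.9%, against 47.9% and 29.9% of all genes. Between the central tissues 6 were lower and 1 higher in the spinal cord, with a median of -0.67. The shares called against the cerebellum and the spinal cord were 92.3% and 76.9%, against 51.9% and 31.7% of all genes. Between the central tissues the share was 53.8%, near the 45.2% of all genes. The general neuronal markers, 6 of 14 with none at 0, summed to 1082 to 1663 CPM in the ganglion, 1100.2 to 1583 in the spinal cord and 1530.5 to 2159 in the cerebellum. The ganglion and spinal cord ranges of this sum overlapped, but the 6 markers differed among themselves. In the ganglion 2 were higher and 2 lower than in the cerebellum, with log2 differences from -4.77 to 3.79. Against the spinal cord 0 were higher and 2 lower, from -1.98 to 0.63. The astroglia markers, 5 of 8 with none at 0, summed to 1442 to 2330.1 CPM in the ganglion, 6489.9 to 8280.2 in the spinal cord and 2353 to 3820.4 in the cerebellum. The part of cell composition in these differences was not tested.

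The LRRC4 genes encode the postsynaptic netrin-G ligand family. Of these lrrc4c, the partner of netrin-G1, was measured in the ganglion at 0.157 to 1.85 CPM (median 1.16), in the spinal cord at 17.6 to 31.3 (median 21.4) and in the cerebellum at 38.1 to 56.1 (median 46.4). The 3 tissues did not overlap. The ganglion was 39.3-fold lower than the cerebellum (-5.30 ± 0.279, edgeR adjusted p = 3.45e-12) and 19.02-fold lower than the spinal cord (-4.25 ± 0.270, edgeR adjusted p = 1.44e-10). Spinal cord against cerebellum, the difference was -1.05 (edgeR adjusted p = 3.96e-04), just past 2-fold, and this call was lost without the 4 libraries highest in muscle actin (-0.86). Its relative lrrc4b was at 12.8 to 33.7 (median 23.98) CPM in the ganglion, 153 to 177 (median 162) in the spinal cord and 199.8 to 276 (median 253) in the cerebellum. The ganglion was lower, at -3.39 against the cerebellum and -2.79 against the spinal cord, again without overlap. For lrrc4 the ganglion libraries, at 4.54 to 10.5 (median 8.05), lay below both central tissues, which overlapped each other at 40.3 to 61.04 (median 54.3) in the spinal cord and 41.7 to 69.3 (median 51.5) in the cerebellum. Its log2 differences were -2.71 and -2.74 for the ganglion against the cerebellum and the spinal cord, and 0.03 between the central tissues, which was not called.

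The LRRTM genes, whose products bind neurexins from the postsynaptic side, were all lower in the ganglion than in either central tissue. For lrrtm1 the ganglion ran from 0 to 1.42 CPM (median 0.622), where replicate 5 had no count, the spinal cord from 5.17 to 10.6 (median 7.51) and the cerebellum from 10.9 to 26.4 (median 20.2). No ranges overlapped, and the ganglion was 28.3-fold lower than the cerebellum (-4.82 ± 0.419, edgeR adjusted p = 4.86e-09). The gene lrrtm2 was at 40.4 to 57.1 (median 48.03) CPM in the spinal cord and 32.4 to 39.2 (median 33.5) in the cerebellum against 2.13 to 8.87 (median 7.18) in the ganglion. The difference of 0.49 between the central tissues was not called (edgeR adjusted p = 0.0549). The gene lrrtm4, lowest of the 3 by TPM in every tissue, ran from 0 to 0.649 (median 0.436) CPM in the ganglion, again with replicate 5 at 0, 3.10 to 8.06 (median 4.26) in the spinal cord and 2.06 to 6.56 (median 3.47) in the cerebellum, the central tissues overlapping.

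The SLITRK genes encode ligands of LAR-type phosphatases. The gene slitrk4 had its lowest level in the ganglion, at 0.939 to 6.97 CPM (median 4.35), a middle level in the spinal cord, at 19.9 to 30.8 (median 24.4), and its highest in the cerebellum, at 73.4 to 87.8 (median 82.03). No ranges overlapped, and all 3 comparisons called it: -4.30 for the ganglion against the cerebellum, -2.57 against the spinal cord and -1.73 for the spinal cord against the cerebellum. For slitrk3 the order was the same, at 20.98 to 36.04 (median 33.8), 47.96 to 54.6 (median 51.5) and 84.8 to 120.4 (median 111) CPM, with no overlap, but the step from ganglion to spinal cord was under 2-fold. The gene slitrk5 was lower in the ganglion than the spinal cord (-1.19) and the cerebellum (-1.86), with the central tissues overlapping. For slitrk2 the ganglion, at 13.5 to 27.9 (median 18.1), overlapped the cerebellum, at 27.6 to 44.3 (median 38.6). That difference was under 2-fold (-0.90 ± 0.179, edgeR adjusted p = 1.73e-04), and a fit on TPM called it lower in the ganglion. The ganglion was called lower than the spinal cord, at 36.04 to 56.5 (median 43.9) (-1.15 ± 0.179, edgeR adjusted p = 2.36e-05), and this call was lost without ganglion libraries 2 and 5 (-0.99).

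The LRFN genes, also called SALM and encoding synaptic adhesion proteins, differed among themselves. The gene lrfn1 ran from 51.1 to 83.3 CPM (median 68.9) in the cerebellum against 5.64 to 19.6 (median 12.5) in the ganglion and 9.97 to 16.9 (median 14.4) in the spinal cord, which overlapped. The cerebellum was above both without overlap, with the spinal cord 5.07-fold lower (-2.34 ± 0.238, edgeR adjusted p = 6.57e-08) and the ganglion 5.24-fold lower. For lrfn2, at 0.708 to 3.78 (median 1.46) CPM in the ganglion, 3.75 to 7.15 (median 6.33) in the spinal cord and 14.4 to 23.8 (median 18.8) in the cerebellum, all 3 comparisons were called, the ganglion being -3.49 against the cerebellum and -1.76 against the spinal cord. The exception was lrfn5, at 15.7 to 47.7 (median 34.98) CPM in the ganglion, 15.05 to 24.01 (median 18.5) in the spinal cord and 6.69 to 10.2 (median 9.14) in the cerebellum. Ganglion and spinal cord overlapped and both lay above the cerebellum, the ganglion 3.85-fold higher (1.95 ± 0.235, edgeR adjusted p = 4.59e-07) and the spinal cord 2.22-fold higher (1.15 ± 0.231, edgeR adjusted p = 2.32e-04). With limma on log2(TPM + 1) lrfn5 stayed called for the ganglion (1.09) but not for the spinal cord (0.81).

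**Figure D4:**
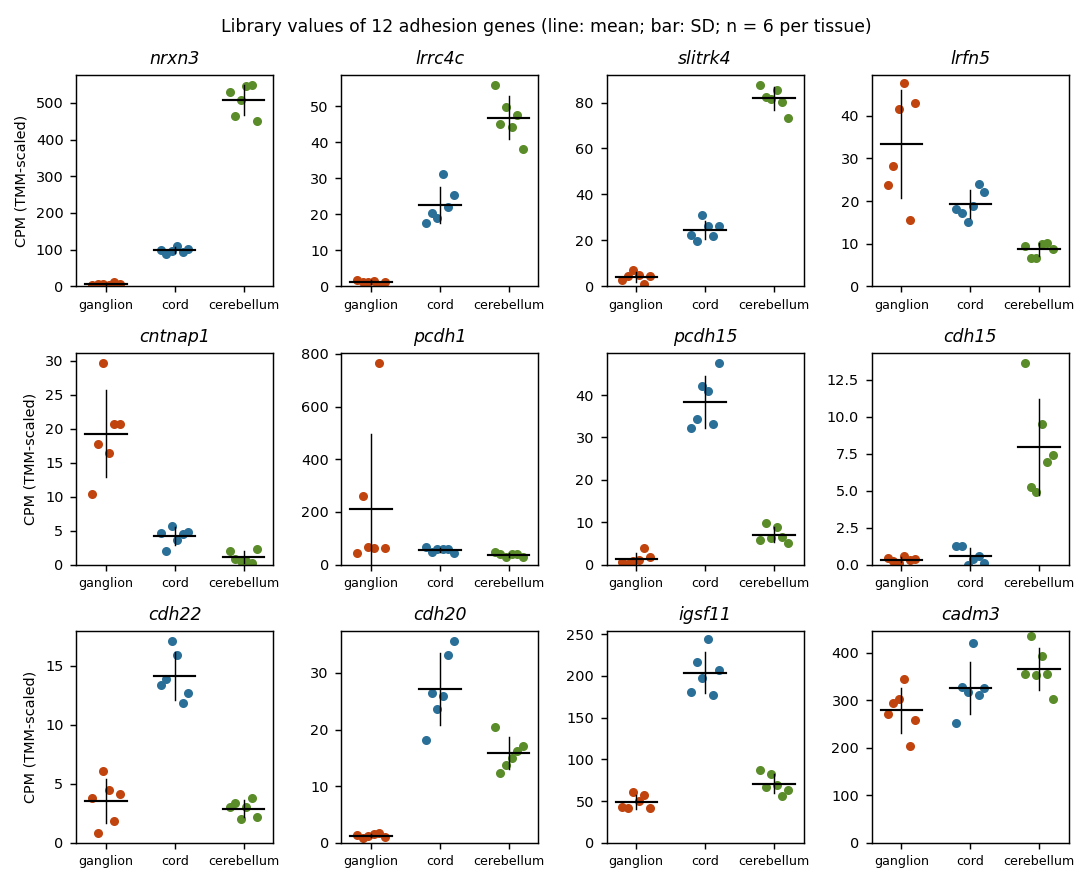
CPM of 12 members in every library, by tissue; each point is a library, the line the mean and the bar the SD of 6. The genes nrxn3, lrrc4c and slitrk4 step up from ganglion to spinal cord to cerebellum without overlap, cntnap1 is highest in the ganglion, pcdh15 and igsf11 in the spinal cord, and the high mean of pcdh1 in the ganglion comes from 2 libraries.

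Of the synaptic scaffolds that hold such receptors, 15 of 28 symbols were in the table and tested. In the ganglion 8 were lower and 2 higher than in the cerebellum (median log2 difference -1.19), and 4 lower and 2 higher than in the spinal cord (median -0.44). In the spinal cord 7 were lower and 1 higher than in the cerebellum (median -0.70). These are 66.7%, 40% and 53.3% called, against 51.9%, 31.7% and 45.2% of all genes. The postsynaptic scaffold dlgap2 ran from 0.118 to 0.730 CPM (median 0.358) in the ganglion, 4.26 to 9.07 (median 6.10) in the spinal cord and 15.1 to 21.6 (median 18.1) in the cerebellum, without overlap. The ganglion was 44.5-fold lower than the cerebellum (-5.47 ± 0.341, edgeR adjusted p = 3.80e-11) and 15.7-fold lower than the spinal cord. The gene shank1, a master scaffold of excitatory synapses, was 4.73-fold lower in the spinal cord, at 3.82 to 6.97 (median 5.14), than in the cerebellum, at 18.6 to 28.8 (median 26.6). The junction scaffold magi1 was higher in the ganglion (1.31) and the spinal cord (1.35) than in the cerebellum. The ganglion call was lost without ganglion libraries 2 and 5 (0.95), and both calls with limma on log2(TPM + 1). The adaptor apba1 was called higher in the ganglion than the spinal cord (2.08 ± 0.634, edgeR adjusted p = 0.00997), but the ganglion libraries ran from 133 to 3214 (median 173) against 169.8 to 220.5 (median 201) in the spinal cord, and the value rested on ganglion replicates 2 and 5. It was 0.89 without replicate 5 and -0.34 without both, neither called. It was 1.07 (edgeR adjusted p = 0.165) with the replicate block. Against the cerebellum it was 1.38, not called, and -1.05, called lower, without both libraries.

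The classical and other cadherins, of which 7 of 8 were tested, gave calls in both directions. In the ganglion 3 were lower and 1 higher than in the cerebellum, and 3 were lower than in the spinal cord. The spinal cord was higher than the cerebellum for 1 and lower for 1. These are 57.1%, 42.9% and 28.6% called, against 51.9%, 31.7% and 45.2% of all genes. N-cadherin, encoded by cdh2 and the main cadherin of neural tissue, had the highest TPM of the family in both central tissues and was at 120.0 to 303 CPM (median 134) in the ganglion, 280.5 to 363 (median 331) in the spinal cord and 187 to 245 (median 210.0) in the cerebellum. The highest ganglion library, replicate 5 at 303 CPM, reached into the spinal cord range, and the other 5 ran from 120.0 to 163. The ganglion was lower than the spinal cord at -1.0004 ± 0.188 (edgeR adjusted p = 1.82e-04), which is at the 2-fold threshold itself. RLE scaling and DESeq2 each gave -0.97, and leaving out ganglion replicate 2 gave -0.998, all just short of it. Against the cerebellum cdh2 was at -0.38 and was not called, also under every alternative that used counts. By mean TPM it was at 56.7 in the ganglion, 159 in the spinal cord and 119.9 in the cerebellum. A fit on TPM called it lower in the ganglion than the cerebellum.

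Cadherin-20, encoded by cdh20, a type II cadherin, differed most between the ganglion and the spinal cord among the cadherins. It ran from 0.827 to 1.72 CPM (median 1.27) in the ganglion, 18.2 to 35.7 (median 26.1) in the spinal cord and 12.4 to 20.5 (median 15.6) in the cerebellum. The ganglion lay below both central tissues, which overlapped: it was 21.5-fold lower than the spinal cord (-4.42 ± 0.225, edgeR adjusted p = 6.41e-12) and 12.5-fold lower than the cerebellum (-3.65 ± 0.220, edgeR adjusted p = 2.38e-11). The type II cadherin cdh22 was highest in the spinal cord, at 11.8 to 17.1 (median 13.6) CPM, with 0.827 to 6.04 (median 3.97) in the ganglion and 1.99 to 3.81 (median 3.00) in the cerebellum. Those last ranges overlapped, and the spinal cord was 4.88-fold higher than the cerebellum (2.29 ± 0.327, edgeR adjusted p = 5.42e-06) and 3.93-fold above the ganglion (-1.97 ± 0.325, edgeR adjusted p = 4.25e-05).

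M-cadherin, encoded by cdh15 and known from muscle precursors and, in the mouse, from cerebellar granule cells, was measured mainly in the cerebellum, at 4.90 to 13.6 CPM (median 7.16), against 0.133 to 0.568 (median 0.345) in the ganglion and 0 to 1.26 (median 0.486) in the spinal cord. The cerebellum stood above both without overlap, 22.6-fold over the ganglion (-4.50 ± 0.597, edgeR adjusted p = 1.56e-06) and 12.96-fold over the spinal cord (-3.70 ± 0.554, edgeR adjusted p = 9.43e-06). The sum of the 4 muscle markers was lowest in the cerebellum, at 9.35 to 12.6 CPM, where cdh15 was highest. Of these 4, 3 were called higher and 1 lower than in the cerebellum, in the ganglion and also in the spinal cord. The part of muscle RNA was not tested. The granule cell markers, 11 of 11 with none at 0, summed to 8879 to 13814 CPM in the cerebellum, 245 to 351 in the spinal cord and 123 to 252 in the ganglion. Against the cerebellum, 10 of these 11 were lower and 0 higher in the ganglion, and 8 were lower and 2 higher in the spinal cord. Their part in the result was not tested. Cadherin-11, encoded by cdh11 and known from mesenchyme as well as neurons, was the only cadherin higher in the ganglion than the cerebellum, at 131 to 303 (median 165) CPM against 54.1 to 74.4 (median 68.1), with 87.3 to 121 (median 101) in the spinal cord. By CPM the 3 tissues did not overlap. By TPM the spinal cord, at 42.7 to 58.8, overlapped both the ganglion, at 52.8 to 73.1, and the cerebellum, at 31.0 to 43.2. The ganglion was 2.83-fold above the cerebellum (1.5024 ± 0.175, edgeR adjusted p = 2.89e-07), and this call was lost with limma on log2(TPM + 1) (0.80). Fibroblast markers, 5 of 13 with none at 0, had the same order, summing to 435 to 1828 CPM in the ganglion, 20.5 to 160.1 in the spinal cord and 8.52 to 24.5 in the cerebellum. Their part was not tested. Cadherin-23, a protein of hair cell tip links encoded by cdh23, was lower in the ganglion, at 2.08 to 4.78 (median 3.09), than in the cerebellum, at 5.11 to 12.6 (median 7.92) (-1.38 ± 0.282, edgeR adjusted p = 2.22e-04), a call that limma on log2(TPM + 1) did not make (-0.88). T-cadherin, encoded by cdh13 and anchored by lipid in the membrane, was not called anywhere, all its ranges overlapping between 27.4 and 76.1 CPM.

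Of the proteins that tie cadherins and nectins to the cytoskeleton, 9 of the 10 genes found of 15 symbols were tested. The ganglion was higher for 1 and lower for 1 against the cerebellum (median log2 difference -0.42), and lower for 4 against the spinal cord (median -0.25). The spinal cord was higher than the cerebellum for 3 (median 0.67). Of the list 22.2%, 44.4% and 33.3% were thus called, against 51.9%, 31.7% and 45.2% of all genes. The catenin relative pkp4 stood out in the spinal cord, at 138 to 225 CPM (median 161) against 13.3 to 38.02 (median 29.8) in the ganglion and 26.8 to 46.1 (median 36.3) in the cerebellum. It was 6.44-fold above the ganglion and 4.81-fold above the cerebellum, without overlap. Alpha-catenin, encoded by ctnna1, was higher in the ganglion than the cerebellum (2.79 ± 0.541, edgeR adjusted p = 1.33e-04), but ganglion libraries ran from 28.5 to 412 (median 44.4) CPM and without replicates 2 and 5 the difference was 1.07, still called. The catenin arvcf was lower in the ganglion than the cerebellum (-1.04), a call lost without ganglion replicate 2 (-0.9952) or 5 (-0.88).

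All 5 protocadherins were tested. Against the cerebellum the ganglion was lower for 2 and higher for 1, and against the spinal cord it was also lower for 2 and higher for 1. The spinal cord was higher than the cerebellum for 2 and lower for 1. In each comparison 60% of the family was called, against 51.9%, 31.7% and 45.2% of all genes. The tip-link protein pcdh15 was highest in the spinal cord, at 32.1 to 47.6 CPM (median 37.7), with 5.18 to 9.72 (median 6.46) in the cerebellum and 0.118 to 3.91 (median 0.893) in the ganglion. No ranges overlapped. The ganglion was 29.9-fold lower than the spinal cord (-4.90 ± 0.431, edgeR adjusted p = 1.31e-08) and 5.51-fold lower than the cerebellum (-2.46 ± 0.409, edgeR adjusted p = 2.39e-05). In the spinal cord it was 5.43-fold above the cerebellum (2.44 ± 0.367, edgeR adjusted p = 9.64e-06). The other tip-link gene, cdh23, was at 3.05 to 6.01 (median 4.34) CPM in the spinal cord. Against the cerebellum that was -0.94, not called, and -1.21, called, without the 4 libraries highest in muscle actin. In contrast, pcdh18, a protocadherin of the non-clustered delta group, was highest in the cerebellum, at 127 to 196 (median 169) CPM against 34.1 to 48.2 (median 39.2) in the ganglion and 38.3 to 49.7 (median 42.6) in the spinal cord. Those overlapped each other but not the cerebellum, and the differences were -2.04 ± 0.132 (edgeR adjusted p = 6.88e-11) for the ganglion and -1.93 ± 0.132 (edgeR adjusted p = 2.51e-10) for the spinal cord.

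For pcdh1, an adhesion gene of epithelia as well as neurons, the 6 ganglion libraries were at 43.3, 261.9, 67.1, 64.5, 766 and 62.3 CPM in the order of their numbers, against 45.2 to 67.9 (median 58.1) in the spinal cord and 27.6 to 49.1 (median 38.6) in the cerebellum. Replicates 2 and 5 were high, and of the other 4, all but the lowest lay within the range of the spinal cord. The ganglion was called higher than the cerebellum (2.51 ± 0.555, edgeR adjusted p = 4.91e-04) and the spinal cord (1.90 ± 0.543, edgeR adjusted p = 0.00650). Without replicate 5 these were 1.43, still called, and 0.82, not called. Without replicates 2 and 5 they were 0.68 and 0.08, neither called. With limma on log2(TPM + 1) they were 0.98 and 0.61, neither called. With the replicate number as a block the difference from the spinal cord was 1.21 (edgeR adjusted p = 0.0535). The epithelial markers, 3 of 9 with none at 0, summed to 8.14 to 279.7 CPM in the ganglion, 13.5 to 124 in the spinal cord and 21.5 to 29.7 in the cerebellum. Their part was not tested. The endothelial protocadherin pcdh12 was higher in the spinal cord, at 4.39 to 10.5 (median 7.99), than in the ganglion, at 0.590 to 4.46 (median 2.60) (-1.57 ± 0.426, edgeR adjusted p = 0.00448), or the cerebellum, at 1.37 to 5.43 (median 3.09) (1.30 ± 0.419, edgeR adjusted p = 0.0104). Ranges overlapped in both. The sum of the endothelial markers, 7 of 12 with none at 0, was also highest there, at 293 to 415 CPM against 110.0 to 214 in the ganglion and 189.7 to 226 in the cerebellum. Of these 7, 5 were higher and 0 lower in the spinal cord than the cerebellum. In the ganglion 2 were lower and 0 higher than in the spinal cord, and 3 higher and 1 lower than in the cerebellum. Their part was not tested. The spinal cord call over the cerebellum was lost with limma on log2(TPM + 1) (0.74) and without the 4 libraries highest in muscle actin (edgeR adjusted p = 0.0739 at 1.16). The last, pcdh7, was at 60.6 to 116 (median 77.5) CPM in the ganglion, 54.1 to 80.9 (median 63.6) in the spinal cord and 62.6 to 90.97 (median 78.2) in the cerebellum, all overlapping and uncalled.

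The Celsr proteins, giant cadherins of planar cell polarity and axon tract formation, were all lower in the ganglion than the cerebellum. The gene celsr2, with the highest TPM of the 3 in both central tissues, ran from 0 to 1.62 CPM (median 1.11) in the ganglion, where replicate 5 had no count, 12.05 to 20.6 (median 15.6) in the spinal cord and 14.4 to 25.1 (median 18.2) in the cerebellum. The central tissues overlapped and the ganglion lay below both, 17.6-fold lower than the cerebellum (-4.14 ± 0.352, edgeR adjusted p = 3.51e-09) and 15.01-fold lower than the spinal cord (-3.91 ± 0.350, edgeR adjusted p = 1.71e-08). For celsr3, the cerebellum at 3.56 to 7.61 (median 5.89) was above the ganglion at 0.118 to 1.70 (median 0.542) and the spinal cord at 0.669 to 2.94 (median 1.06), which overlapped. Spinal cord levels were 3.87-fold lower than in the cerebellum (-1.95 ± 0.479, edgeR adjusted p = 0.00146), a call lost with limma on log2(TPM + 1) (-0.87). The gene celsr1 ran from 0.162 to 2.55 (median 1.44) CPM in the ganglion, 1.93 to 8.84 (median 3.42) in the spinal cord and 7.66 to 13.05 (median 9.96) in the cerebellum. It was called in all 3 comparisons, at -2.93 and -1.74 for the ganglion and -1.19 for the spinal cord against the cerebellum. The last 2 were lost with limma on log2(TPM + 1) (-0.59 and -0.83), and that against the spinal cord also without the libraries highest in muscle actin (edgeR adjusted p = 0.0546).

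The Dachsous gene dchs2, whose product binds Fat cadherins, was rare but measured mainly in the spinal cord: 186 counts over its 6 libraries, against 12 in the ganglion and 4 in the cerebellum. Spinal cord libraries ran from 2.16 to 3.29 CPM (median 2.52), ganglion libraries from 0 to 0.398 (median 0.169) and cerebellum libraries from 0 to 0.0860 (median 0.0644). The spinal cord stood above both without overlap, at 5.54 ± 0.616 (edgeR adjusted p = 2.19e-07) against the cerebellum, and the ganglion was at -3.75 ± 0.544 (edgeR adjusted p = 9.88e-06) against the spinal cord. The ganglion was also called above the cerebellum (1.78, edgeR adjusted p = 0.0354), on these few counts and with overlap, and that call was lost with the replicate block (edgeR adjusted p = 0.0681) and without ganglion replicate 5 (0.0604). With limma on log2(TPM + 1), whose pseudocount exceeds these levels, none of the 3 was called, the changes being 0.50, -0.48 and 0.02.

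Of the Fat cadherins and planar polarity partners, 13 of 14 symbols were found and tested. Against the cerebellum the ganglion was lower for 5 and higher for 3 (median log2 difference -0.61), against the spinal cord lower for 5 (median -0.75), and the spinal cord was higher than the cerebellum for 4 and lower for 1 (median 0.50). Called shares of 61.5%, 38.5% and 38.5% lay near the 51.9%, 31.7% and 45.2% of all genes. The giant cadherin fat1 was highest in the cerebellum, at 56.1 to 107 CPM (median 77.8), against 2.97 to 14.8 (median 7.47) in the ganglion and 7.18 to 21.04 (median 12.7) in the spinal cord. It was 9.75-fold lower in the ganglion (-3.29 ± 0.355, edgeR adjusted p = 1.02e-07) and 5.78-fold lower in the spinal cord. Its relative fat3 was 6.50-fold lower in the ganglion, at 4.87 to 6.73 (median 5.93), than in the spinal cord, at 31.99 to 46.01 (median 37.6) (-2.6999 ± 0.184, edgeR adjusted p = 3.64e-10). The core polarity gene prickle1 was 4.22-fold higher in the ganglion than the cerebellum (2.08 ± 0.299, edgeR adjusted p = 4.39e-06). The Frizzled receptor fzd6 was 3.38-fold higher in the spinal cord than in the cerebellum (1.76 ± 0.218, edgeR adjusted p = 9.52e-07).

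Along the axon, cntnap1 was higher in the ganglion than in both other tissues. It encodes Caspr, which with contactin and a neurofascin joins the axon to the myelin loops beside each node of Ranvier. Ganglion libraries were at 10.4 to 29.7 CPM (median 19.2), spinal cord libraries at 1.93 to 5.74 (median 4.58) and cerebellum libraries at 0.212 to 2.23 (median 0.719). The ganglion stood above both, while the spinal cord and the cerebellum overlapped. It was 17.8-fold higher than the cerebellum (4.15 ± 0.447, edgeR adjusted p = 9.90e-08) and 4.58-fold higher than the spinal cord (2.20 ± 0.404, edgeR adjusted p = 1.41e-04). In the spinal cord it was 3.88-fold higher than in the cerebellum (1.96 ± 0.427, edgeR adjusted p = 5.10e-04), a call lost with limma on log2(TPM + 1) (0.62). The ganglion calls were kept without replicates 2 and 5 (4.15 and 2.20). Schwann cell and peripheral myelin markers, 8 of 12 with none at 0, summed to 5939.9 to 23473 CPM in the ganglion, 5824 to 7240.3 in the spinal cord and 1243 to 1985 in the cerebellum. Of the 7 of these markers tested, 5 were higher and 1, fabp7, lower in the ganglion than the spinal cord (median log2 difference 3.38), and mpz, with the highest CPM in both tissues, was not called (0.44). Oligodendrocyte markers, 8 of 11 with none at 0, summed to 714 to 1129.8 CPM in the ganglion, 2747 to 3343 in the spinal cord and 770.3 to 1089 in the cerebellum. Their part in the result was not tested.

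The L1-family members, which act at nodes and in axon growth, differed less. Neurofascin, encoded by nfasc, was at 114 to 148 CPM (median 129) in the spinal cord, 60.5 to 89.9 (median 66.9) in the ganglion and 39.4 to 59.2 (median 47.4) in the cerebellum, with no overlap by CPM. By TPM the ganglion, at 14.6 to 18.9, overlapped the cerebellum, at 15.2 to 22.3. The uncalled difference between these tissues changed sign in the fits on TPM. Spinal cord levels were 2.72-fold higher than in the cerebellum (1.44 ± 0.134, edgeR adjusted p = 1.91e-08). The ganglion was at -0.90 ± 0.132 (edgeR adjusted p = 1.18e-05) against the spinal cord, a change under 2-fold. Without ganglion replicates 2 and 5 it was at -1.01 (edgeR adjusted p = 1.65e-06) and was called lower, as it was with limma on log2(TPM + 1) (-1.28). For nrcam, highest of the 3 by TPM in every tissue, the ganglion ran from 91.9 to 317 (median 158) CPM. Replicates 2 and 5 were at 317 and 305, and the other 4 ran from 91.9 to 159.9. The spinal cord ran from 132 to 187 (median 157) and the cerebellum from 164 to 245 (median 214). All tissues overlapped and no comparison was called. The same held for l1cam, at 67.7 to 164 (median 124) CPM in the ganglion, 99.5 to 204 (median 139.7) in the spinal cord and 86.6 to 109 (median 92.8) in the cerebellum.

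The contactin cntn5, a lipid-anchored axonal protein, was highest in the spinal cord, at 6.51 to 17.996 CPM (median 12.98), with 3.70 to 8.56 (median 6.01) in the ganglion and 1.06 to 5.99 (median 2.91) in the cerebellum. The spinal cord did not overlap the cerebellum, over which it was 4.02-fold higher (2.01 ± 0.339, edgeR adjusted p = 3.77e-05), but it overlapped the ganglion, over which it was 2.14-fold higher (-1.10 ± 0.330, edgeR adjusted p = 0.00933). The ganglion was at 0.91 against the cerebellum, not called, and at 1.02, called, without the libraries highest in muscle actin. The neural cell adhesion molecule ncam2 did not overlap between tissues, at 179 to 210.3 (median 192) CPM in the spinal cord, 85.4 to 114 (median 97.4) in the cerebellum and 44.8 to 71.4 (median 63.5) in the ganglion. The ganglion was 3.24-fold lower than the spinal cord (-1.70 ± 0.125, edgeR adjusted p = 1.07e-09), while the differences of -0.72 from the cerebellum and 0.98 between the central tissues were under 2-fold. With limma on log2(TPM + 1) the former was called (-1.29), as was the latter without the 4 libraries highest in muscle actin (1.03). Among the cytoskeletal and matrix proteins of the node and paranode, 10 of 17 symbols were found and tested. In the ganglion 2 were higher and 2 lower than in the cerebellum, and 1 higher and 3 lower than in the spinal cord. In the spinal cord 3 were higher and 1 lower than in the cerebellum, with medians of -0.17, 0.04 and 0.25. In each comparison 40% of the list was called, against 51.9%, 31.7% and 45.2% of all genes. The node matrix gene vcan was 15.7-fold higher in the ganglion than the cerebellum (3.97) and 15.8-fold higher in the spinal cord (3.98). In turn bcan, a matrix gene of central nodes, was 17.6-fold lower in the ganglion than the spinal cord (-4.14 ± 0.302, edgeR adjusted p = 9.77e-10). The membrane skeleton gene epb41l2 was higher in the ganglion than the spinal cord (1.43), a change just under 2-fold with limma on log2(TPM + 1) (0.93). The nodal spectrin sptbn4 was 2.46-fold lower in the spinal cord than in the cerebellum (-1.30).

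The CADM proteins, also called SynCAM or nectin-like, link axons to glia and to synaptic partners. The abundant pair cadm3 and cadm4 was called in no comparison: cadm3 was at 203 to 345 CPM (median 283) in the ganglion, 252 to 420.2 (median 322) in the spinal cord and 303 to 435 (median 355) in the cerebellum, all overlapping. For cadm4 the ganglion, at 125 to 251 (median 184), lay below both central tissues, at 291 to 339 (median 321) and 327 to 368 (median 338), by less than 2-fold. The differences were -0.89 ± 0.134 (edgeR adjusted p = 6.87e-06) against the cerebellum and -0.80 ± 0.133 (edgeR adjusted p = 4.88e-05) against the spinal cord. By mean TPM cadm4 was at 74.6 in the ganglion, 170.1 in the spinal cord and 210.2 in the cerebellum. A fit on TPM called it lower in the ganglion in both comparisons, and cadm3 lower in the ganglion than the cerebellum. No alternative that used counts did so. The other pair was called in opposite directions for the ganglion against the cerebellum. The gene cadm2 was lower in the ganglion, at 4.25 to 10.8 (median 8.02), than in the spinal cord, at 27.8 to 36.7 (median 31.7) (-2.02 ± 0.192, edgeR adjusted p = 3.89e-08), and the cerebellum, at 19.6 to 28.7 (median 22.2) (-1.54 ± 0.190, edgeR adjusted p = 5.98e-07), its libraries lying below both. The gene cadm1 was lowest in the cerebellum, at 1.06 to 2.68 (median 1.70), against 1.88 to 7.96 (median 5.75) in the ganglion and 7.90 to 11.6 (median 10.1) in the spinal cord. In the spinal cord it was 5.44-fold higher than in the cerebellum without overlap (2.44 ± 0.315, edgeR adjusted p = 1.48e-06). The ganglion was also called above the cerebellum (1.52 ± 0.310, edgeR adjusted p = 2.24e-04), with overlap and not with limma on log2(TPM + 1) (0.66). Against the spinal cord it was at -0.92, not called, and with the replicate block at -1.01 (edgeR adjusted p = 0.0105), called lower.

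Of the 6 genes with an IGSF name, which share immunoglobulin domains and little else, 5 were tested. The homophilic synaptic protein igsf11 was highest in the spinal cord, at 177 to 244 CPM (median 202), against 41.1 to 60.3 (median 46.8) in the ganglion and 56.5 to 86.8 (median 67.9) in the cerebellum. The spinal cord lay above both without overlap, 2.88-fold higher than the cerebellum (1.53 ± 0.141, edgeR adjusted p = 1.73e-08) and 4.16-fold higher than the ganglion (-2.06 ± 0.143, edgeR adjusted p = 4.95e-10). The inhibitory synapse gene igsf9b was lower in the ganglion, at 0.939 to 14.04 (median 9.68), than in the cerebellum, at 27.5 to 41.9 (median 34.4) (-1.94 ± 0.358, edgeR adjusted p = 7.68e-05), and the spinal cord, at 21.04 to 34.6 (median 28.2) (-1.64), without overlap. The gene igsf6, a receptor of myeloid and dendritic cells, was at 3.25 to 7.51 (median 4.35) CPM in the ganglion, 3.68 to 8.56 (median 5.36) in the spinal cord and 1.21 to 1.83 (median 1.37) in the cerebellum. It was lower in the cerebellum than in either other tissue, by 3.46-fold against the ganglion (1.79 ± 0.293, edgeR adjusted p = 2.06e-05) and 4.09-fold against the spinal cord (2.03 ± 0.294, edgeR adjusted p = 6.01e-06). The call against the ganglion was lost with limma on log2(TPM + 1) (0.88). Leukocyte markers, 2 of 8 with none at 0, were also lowest in the cerebellum, summing to 534 to 1605 CPM there, 3045 to 12666 in the ganglion and 2776 to 5755 in the spinal cord. Their part was not tested. The rare igsf10 was higher in the ganglion (2.61 ± 0.704, edgeR adjusted p = 0.00267) and the spinal cord (3.02 ± 0.701, edgeR adjusted p = 8.89e-04) than in the cerebellum, where it had 25 counts in all. Both calls were lost with limma on log2(TPM + 1) (0.26 and 0.51). The last tested gene, igsf8, was at 3.90 to 13.6 (median 6.31) CPM in the ganglion, 3.95 to 8.31 (median 5.91) in the spinal cord and 7.999 to 11.9 (median 9.01) in the cerebellum, all overlapping and uncalled.

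Of the 4 genes that share only the prefix, lrrc40 was highest in the cerebellum, at 30.1 to 58.7 CPM (median 44.6), against 6.89 to 14.9 (median 12.3) in the ganglion and 6.02 to 13.5 (median 8.12) in the spinal cord. Against the cerebellum the ganglion was at -1.93 ± 0.214 (edgeR adjusted p = 1.49e-07) and the spinal cord at -2.39 ± 0.218 (edgeR adjusted p = 1.46e-08). The gene lrrc47 was lower in the spinal cord, at 14.5 to 16.4 (median 15.7), than in the cerebellum, at 26.5 to 36.2 (median 30.8) (-1.0035 ± 0.150, edgeR adjusted p = 8.79e-06), at the 2-fold threshold. In the main fit lrrc42 and lrrc45 were called in no comparison. A fit on TPM called both, and also lrrc47, lower in the ganglion than the cerebellum. No alternative that used counts did so. Without these 4, 23 of 47 members were lower and 8 higher in the ganglion than the cerebellum. Against the spinal cord 24 were lower and 2 higher. In the spinal cord 12 were lower and 12 higher than in the cerebellum. These are 66%, 55.3% and 51.1% called, against 51.9%, 31.7% and 45.2% of all genes.

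The 3 members without enough counts for the test were cdh17, cdhr2 and igsf22. The intestinal cadherin cdh17 had 0 counts in the ganglion, 9 in the spinal cord and 2 in the cerebellum. Of the 9 counts in the spinal cord, 7 were in replicate 2 and 2 in replicate 4. Without replicate 2 the spinal cord would be under the floor of 3 counts as well, so no fold is given. The cadherin-related gene cdhr2, a protocadherin of epithelial brush borders, had 31 counts in the cerebellum, present in all 6 libraries, against 2 in the ganglion and 0 for the spinal cord. Taking a floor of 3 counts over the 6 libraries, the spinal cord was at least 8.37-fold lower than the cerebellum, and the ratio of the cerebellum to the ganglion was 11.2, with a 95% exact binomial interval of 2.84 to 96.3 that covers counting error only. For igsf22 there were 23 counts in the cerebellum, 6 in the ganglion and 2 for the spinal cord, a ratio of 9.32 (2.30 to 81.6) between the cerebellum and the spinal cord.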

How the data were processed

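RNA-seq of 3 tissues was analysed from the gene counts and TPM of the deposited table, both made by the authors. Per the submitters' processing notes, CASAVA 1.8.2, Trimmomatic 0.39, STAR 2.7.7a and featureCounts of Subread 2.0.1 were used; genome build, annotation and strand setting are each not given in the sources used. The kit does not mark strand per the labels' protocols, so antisense reads cannot be told apart, and reads shared between gene copies were not examined. The deposited TPM are the authors' values, corrected for gene length and depth.

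The authors' raw counts were fitted with edgeR 4.0.16 in R 4.3.3. TMM scaling, filterByExpr, a quasi-likelihood F-test with tissue as the only term and Benjamini-Hochberg adjustment over 20691 genes were used, with all 18 libraries in 1 fit and 15 residual degrees of freedom. The standard error is the log2 fold change divided by the square root of F. Library totals of 10346375 to 17587837 counts limit precision for rare genes; floors of 3 counts and 95% intervals cover counting error alone. Within a tissue no 2 libraries agreed within sampling noise (lowest chi-square per degree of freedom 13.6). Where the labels do not say which library is which fish, p-values measure the spread between libraries.

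Library numbers were checked for pairing. Deviations of same-numbered libraries from their tissue means correlated at 0.117 to 0.386 (ganglion and spinal cord), 0.2 to 0.381 (spinal cord and cerebellum) and 0.0802 to 0.284 (ganglion and cerebellum, 4 of 6 above 0.1), against means of -0.0435, -0.0555 and -0.0349 for other numbers. The numbers were taken to pair libraries in the comparisons with the spinal cord, and through it in the third, from this check and not from the labels. The main fit left this pairing out, so its p-values and standard errors treat the 18 libraries as independent. Pairing entered only the alternative with the replicate block.

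Library values are given for a few members per family: the one highest in TPM and the largest called changes with no overlap and a mean log2 CPM of 1 or more, plus the largest called changes of each partner list. Further members were added to account for each family, with their values known. Of the members, 1 is counted in the totals but not reported here. Members, lists and tests were chosen with earlier results of these data known. Alternatives were RLE scaling, no low-count filter, DESeq2 1.42.0, limma 3.58.1 on log2(TPM + 1) and log2(TPM + 0.1), a filter of TPM of at least 1 in 6 libraries, the replicate block, and leaving out ganglion replicate 5, replicates 2 and 5, or the 4 libraries highest in the muscle actin gene acta1 (ganglion 1, spinal cord 1, 3 and 5); leaving out ganglion replicate 2 was chosen after seeing the data. Figures were drawn with matplotlib 3.10.9 in Python 3.11.15.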

Additional observations from a re-analysis of the deposited data

Results flagged for a closer look

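In 14 of 214 groups of 6 libraries, 1 library lay apart from the other 5, the gap to its neighbour exceeding 0.625 of the whole range. For normally distributed values chance gives about 1 in 20. The CPM were not transformed and genes of the same library are not independent, so that rate is only a guide here. Of the 14, 9 were in ganglion replicate 5. There, pcdh1 was at 766 CPM against 43.3 to 262 in the others, apba1 at 3214 against 133 to 1221, cdh2 at 302.8 against 120.0 to 163, nfasc at 89.9 against 60.5 to 70.4, fzd6 at 29.3 against 14.4 to 17.6, nrxn3 at 11.6 against 3.57 to 5.85 and shank1 at 5.64 against 1.93 to 3.21. In the same library slitrk3 was low, at 21.0 CPM against 30.7 to 36.0, as was lrrc40, at 6.89 against 11.9 to 14.9. The TMM factor of this library was 0.611, against 0.814 to 1.06 in the other ganglion libraries. A lower factor raises every CPM of a library. By deposited TPM, cdh2 was at 73.2 in replicate 5 against 49.6 to 62.6 in the others. Over the 6 ganglion libraries TPM ran from 14.6 to 18.9 for nfasc, 0.772 to 1.55 for nrxn3 and 9.16 to 94.8 for pcdh1. The part of scaling was not tested.

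The other 5 were spread over 5 libraries. In ganglion replicate 3 lrfn2 was at 3.78 CPM against 0.708 to 1.62. In spinal cord replicate 3 lrrc40 was at 13.5 against 6.02 to 8.55, and in spinal cord replicate 2 cdh17 was at 0.521 against 0 to 0.156. In the cerebellum, lrrc4b in replicate 6 was at 199.8 against 247 to 276, and cbln2 in replicate 4 was at 30.2 against 10.1 to 15.9.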

How the results depend on the processing

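Of 32, 26 and 26 members called for the ganglion against the cerebellum, the ganglion against the spinal cord, and the spinal cord against the cerebellum, 25, 21 and 18 kept their call under every alternative, and 30, 22 and 24 under every alternative that used counts. The TPM scale moved the counts of higher members most: ganglion against cerebellum 8 became 2 with log2(TPM + 1) or the TPM filter and 5 with log2(TPM + 0.1), and spinal cord against cerebellum 12 became 7 with log2(TPM + 1) or the TPM filter. Ganglion against spinal cord, 2 became 1 under the 3 TPM fits, with the replicate block and without ganglion replicate 5. Beyond the calls of pcdh1, dchs2 and cadm1 given above, the replicate block changed no other call of a member. The cause of these moves was not tested.

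The adaptor gene apba1, not a member, was called higher in the ganglion than the spinal cord and changed sign without ganglion replicates 2 and 5. Among the members, differences that changed sign were all uncalled. On the TPM scales (+1, +0.1 and filtered), against the cerebellum the ganglion gave -0.34, -0.36 and -0.34 for cdh13, -0.19, -0.47 and -0.19 for cdh22, -0.34, -0.35 and -0.34 for l1cam, -0.0830, -0.0869 and -0.0830 for nfasc, and -0.55, -0.57 and -0.55 for pcdh7. Against the spinal cord it gave -0.41, -0.44 and -0.41 for cdh13, -0.22, -0.23 and -0.22 for nrcam, -0.10, -0.11 and -0.10 for pcdh7, -0.0593, -0.0788 and -0.0593 for igsf8, and -0.32, -0.37 and -0.32 for nlgn1. For lrrc4 the spinal cord against the cerebellum gave -0.17 on all 3, -0.000456 with RLE and -0.00346 with DESeq2. Without ganglion replicate 2 or 5, pcdh7 was at -0.0420 and 0.0379 against the cerebellum, and against the spinal cord lrfn1 was at -0.00504 and 0.00178 and nlgn1 at 0.0382 and -0.00917. Without both, pcdh12 was at 0.12 and pcdh7 at -0.14 against the cerebellum, and nrcam at -0.18, igsf8 at -0.0603, lrfn1 at 0.0642 and nlgn1 at -0.0261 against the spinal cord. Without the libraries highest in acta1, nrcam was at 0.0603 against the cerebellum, and cdh13 at -0.0846, igsf6 at 0.18, lrfn1 at 0.18 and nlgn1 at -0.0218 against the spinal cord. Depth limits cdh17, cdhr2, igsf22 and dchs2, and symbols limit the families to named genes.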
